A study of Caenorhabditis elegans with 2 samples.

Results

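The genes described here encode the subunits of the proteasome. They were chosen by name, as every gene of the table whose symbol starts with pas-, pbs-, rpn- or rpt- and a digit, which gave 33 of 20191 genes. Symbols of these 4 kinds name the alpha ring of the core particle (7 genes, pas), its beta ring (7 genes, pbs), the ATPases of the regulatory particle (6 genes, rpt) and its other subunits (13 genes, rpn). Of the last, 4 are scaffolds or ubiquitin receptors of the base and 9 belong to the lid.

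Transcripts were measured in single cells of *Caenorhabditis elegans* embryos, from collections enriched for the stage of 100-200 cells, in 1 library of Wild Type (N2) and 1 library of *spr-5; met-2* mutants. The mutants carried *spr-5(b101)* on chromosome I and *met-2(n4256)* on chromosome III, and were F1 progeny of mothers homozygous for both mutations. SPR-5 removes methyl groups from lysine 4 of histone H3, and MET-2 adds them to lysine 9. The study made these libraries to see how germline genes are expressed outside the germline, cell by cell, when both enzymes are missing in the mother. Embryos of many mothers were pooled, with the mutant mothers picked by hand, and both pools were dissociated with chitinase. With 1 library per genotype, the effect of the genotype and of the library, the pool and its exact age cannot be told apart.

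The proteasome degrades proteins that carry a chain of ubiquitin. Its core particle is a barrel of stacked rings, in which outer alpha rings form the gate and inner beta rings hold the peptidases. The regulatory particle caps the barrel: its base unfolds the substrate with a ring of ATPases, and its lid removes the ubiquitin chain. All cells need the complex, and in yeast, worms and mammals its subunit genes are raised together by a dedicated transcription factor when degradation falls short, which in *C. elegans* is the SKN-1A form of SKN-1.

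Each unique molecular identifier (UMI) stands for 1 captured transcript, read at its 3' end, so that a level does not grow with the length of a gene. Cells were the 219 Wild Type and 686 mutant barcodes with the most UMIs. They held 1013190 and 732058 UMIs, with a median of 2086 per Wild Type cell and 726.5 per mutant cell. In Wild Type 18 barcodes exceeded 10000 UMIs and together held 48.6% of its UMIs, and no mutant barcode was as deep. The libraries shared 11 cell barcodes, and mitochondrial genes took a median of 0.731% of a Wild Type and 1.98% of a mutant cell. The targeted genes had UMIs in both libraries: *spr-5* had 83 Wild Type and 40 mutant UMIs (ratio 0.667, 0.446 to 0.984) and *met-2* had 64 and 20 (ratio 0.433, 0.248 to 0.724). UMIs per gene do not show whether a transcript carries a mutation, so these counts check the labels only by their direction. Levels are given as CPM, the UMIs of a gene scaled to counts per 1000000 UMIs of the same cells. Ratios are mutant over Wild Type unless stated. Every interval is a 95% interval for counting error only, and is exact unless stated. No test of genotype was made, since neither genotype has a second library.

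Summed over the complex, the proteasome genes had nearly equal levels in both genotypes. Wild Type cells held 2550 proteasome UMIs, or 2517 CPM (2420 to 2616), and mutant cells 1841, or 2515 CPM (2401 to 2632). The ratio was 0.999 (0.941 to 1.06). Each of the 5 structural groups had an interval that included 1, with ratios of 1.01 (0.863 to 1.19) for the alpha ring, 0.951 (0.831 to 1.09) for the beta ring, 1.03 (0.896 to 1.18) for the ATPases, 0.952 (0.813 to 1.11) for the scaffolds and receptors and 1.03 (0.925 to 1.16) for the lid. For comparison, the 6839 genes with at least 20 UMIs in both libraries together had a median log2 ratio of 0.27, and the median of the proteasome genes was 0.00. A scaling by the median of ratios, which centres on common genes, shifted every log2 ratio by -0.17 and gave 0.889 for the sum. Its factor was computed once, over all cells, and the same shift was used for every set of cells below.

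The subunit genes differed more from each other than between the genotypes. Of the 33 genes, 32 had at least 20 UMIs, with 42 to 266 UMIs in both libraries together. In Wild Type the levels of these 32 genes ran from 24.7 CPM for *pas-7* to 174 CPM for *pbs-1*, a span of 7.04-fold. In the mutants they ran from 23.2 CPM for *pas-1* to 138 CPM for *pbs-7*, a span of 5.94-fold. The order was much alike, with a Spearman correlation of 0.890 and a Pearson correlation of 0.910 on the log scale over 32 genes, which share their 2 libraries and are not independent replicates. Between the genotypes, 27 of the 32 ratios differed from 1 by no more than 1.25-fold.

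**Figure D1:**
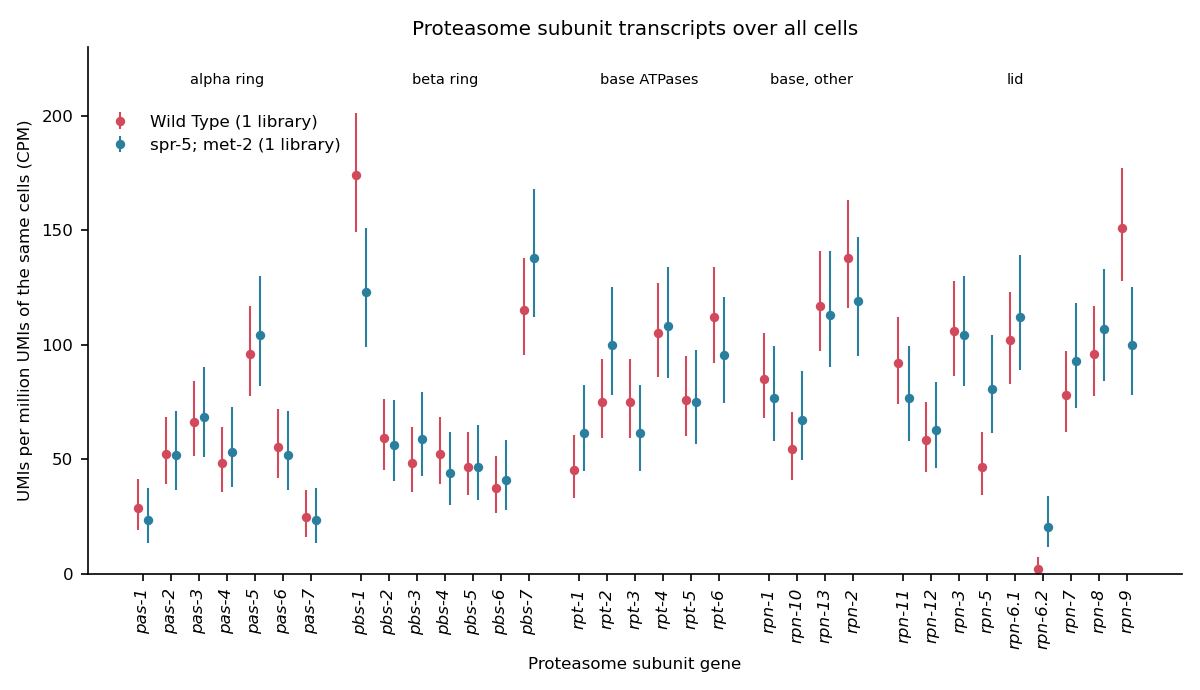
Level of each of the 33 proteasome subunit genes over all cells, in CPM, in the Wild Type library (red) and the *spr-5; met-2* library (blue), grouped by structural role; points are single libraries and bars are 95% Poisson intervals. Levels within a ring differ several-fold, from 24.7 CPM for *pas-7* to 95.7 CPM for *pas-5* in Wild Type, while the red and blue points of most genes lie close together.

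In the alpha ring, whose subunits gate the entry to the barrel, no gene passed a 1.5-fold difference in either direction. The most abundant was *pas-5*, with 97 Wild Type and 76 mutant UMIs, and its ratio was 1.08 (0.792 to 1.48). The lowest ratio of the ring was that of *pas-1*, with 29 and 17 UMIs, at 0.811 (0.418 to 1.53). The intervals of both genes included 1 and overlapped each other. The other 5 genes of the ring had ratios between 0.939 for *pas-6* and 1.10 for *pas-4*.

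The beta ring holds the peptidases, in *C. elegans* PBS-1, PBS-2 and PBS-5 by their similarity to the catalytic subunits of yeast. The 3 genes did not share a direction. With 176 Wild Type and 90 mutant UMIs, *pbs-1* (chrIV:1708814-1709745, minus strand) was the most abundant subunit gene of Wild Type, at 174 and 123 CPM. Its ratio was 0.708 (0.543 to 0.917). For *pbs-2* the counts were 60 and 41, at a ratio of 0.946 (0.620 to 1.43). Those of *pbs-5* were 47 and 34, at a ratio of 1.0 (0.624 to 1.59). Thus only *pbs-1* of the catalytic genes had an interval below 1. Of the structural beta subunits, *pbs-4* had 53 and 32 UMIs, at a ratio of 0.836 (0.521 to 1.32). The counts of *pbs-3* were 49 and 43, with a ratio of 1.21 (0.787 to 1.87), and *pbs-7*, the most abundant subunit gene of the mutants at 138 CPM, had a ratio of 1.19 (0.906 to 1.57). All 3 intervals included 1, as did that of *pbs-6* at 1.09.

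In the base, RPT-1 to RPT-6 form the ring of ATPases that unfolds substrates. The most abundant was *rpt-4*, with 106 Wild Type and 79 mutant UMIs, at a ratio of 1.03 (0.761 to 1.39). Both *rpt-1* and *rpt-2* were among the highest ratios of the complex. For *rpt-1* the counts were 46 and 45, a ratio of 1.35 (0.877 to 2.09), and for *rpt-2* they were 76 and 73, a ratio of 1.33 (0.951 to 1.86). At the other end *rpt-3*, with 76 and 45 UMIs, had a ratio of 0.819 (0.554 to 1.20). None of the 6 ATPase genes reached 1.5-fold or had an interval apart from 1. Among the other base subunits, the scaffold gene *rpn-2* was the most abundant, with 140 and 87 UMIs, at a ratio of 0.860 (0.650 to 1.13). The gene of the ubiquitin receptor RPN-10 had 55 and 49 UMIs, at a ratio of 1.23 (0.822 to 1.85). The second receptor, *rpn-13*, and the scaffold *rpn-1* had ratios of 0.965 and 0.901.

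Among genes with at least 20 UMIs, the lid held both that passed 1.5-fold. The lid subunit gene *rpn-9* (chrII:11237447-11238919, minus strand) had 153 Wild Type and 73 mutant UMIs, or 151 and 99.7 CPM, which was the lowest ratio of the 32 genes with at least 20 UMIs at 0.660 (0.493 to 0.878). The germline-like cells described below held 23 of these Wild Type UMIs and 0 of the mutant ones. In somatic cells the *rpn-9* ratio was 0.769 (0.57 to 1.03), short of 1.5-fold and with an interval that included 1. The lid subunit gene *rpn-5* (chrII:4696418-4698427, minus strand) had 47 Wild Type and 59 mutant UMIs, or 46.4 and 80.6 CPM, the highest of those 32 ratios at 1.74 (1.16 to 2.61). Without the 18 deep Wild Type barcodes the ratio of *rpn-5* was 2.62, so that its size depended on them. The gene *rpn-11*, which encodes the peptidase that cuts off the ubiquitin chain, had 93 and 56 UMIs, at a ratio of 0.833 (0.587 to 1.17). The 4 other lid genes with a single copy, *rpn-3*, *rpn-7*, *rpn-8* and *rpn-12*, had ratios between 0.983 and 1.19.

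Set against all genes at the depth as counted, few subunit genes stood apart. Of 32 subunit genes 1 was at least 1.5-fold higher in the mutants, where the share over all genes with at least 20 UMIs was 35.4%. Another 1 was at least 1.5-fold lower, beside 12.4% of all genes. The interval lay apart from 1 for 3 subunit genes, above it for *rpn-5* and below it for *rpn-9* and *pbs-1*, beside 47.7% of all genes in either direction. The subunit genes had somewhat more UMIs than the other genes, with a median of 126.5 against 93, and scatter from counting is smaller in deeper genes. Among genes with at least 50 UMIs the shares were 28.0% for higher and 13.3% for lower. Scaling by the median of ratios turned the split over all genes from 35.4% higher and 12.4% lower to 28.7% and 17.8%, and that of the subunit genes to 1 higher and 2 lower. When 500 UMIs were drawn per cell, 8 of 23 subunit genes were higher and 4 lower. These counts were near the shares of all genes at that depth, 35.8% and 15.9%.

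**Figure D2:**
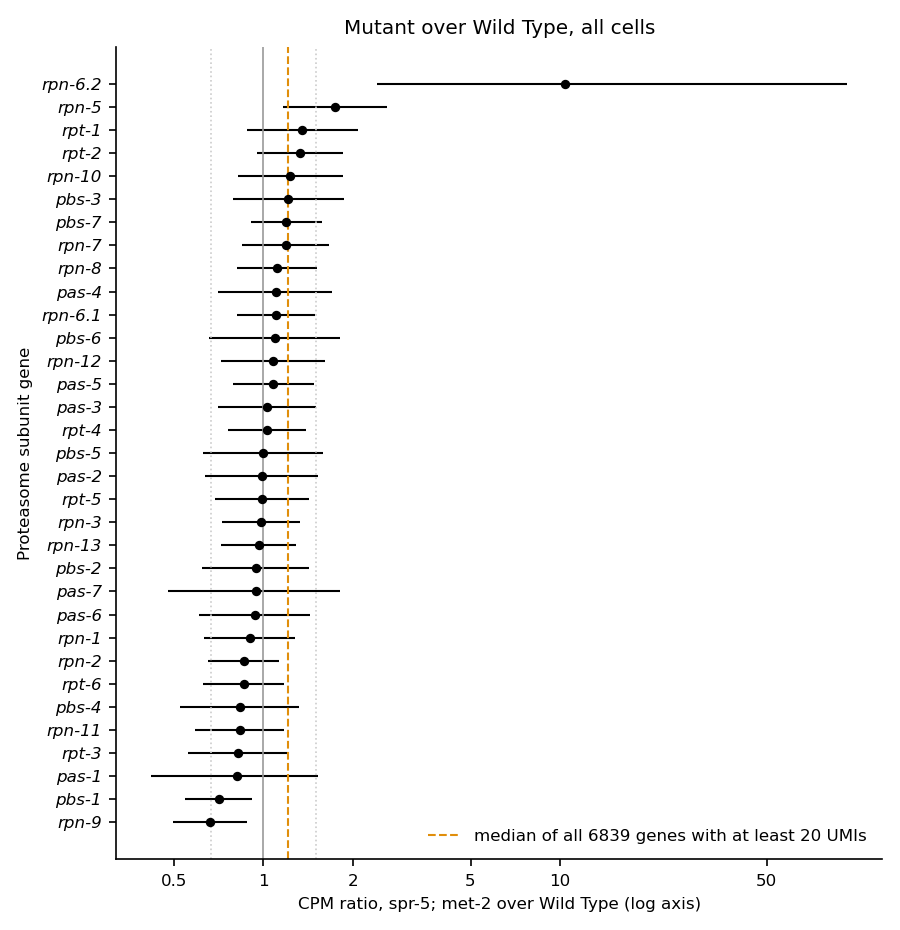
Ratio of CPM in *spr-5; met-2* over Wild Type for the 33 subunit genes over all cells, on a log axis, with bars for the 95% exact conditional interval; the solid line is 1, dotted lines are 1.5-fold in either direction and the dashed line is the median of the 6839 genes with at least 20 UMIs, at 1.21. All subunit genes but *rpn-9*, *rpn-5* and *rpn-6.2* lie within 1.5-fold.

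The lid subunit RPN-6 has a pair of genes. The first, *rpn-6.1*, had 103 Wild Type and 82 mutant UMIs, with a ratio of 1.10 (0.814 to 1.49). Its paralog *rpn-6.2* (chrIII:8999817-9001999, minus strand) was the one subunit gene with fewer than 20 UMIs. It had 2 UMIs in 2 Wild Type cells and 15 UMIs in 15 mutant cells, or 1.97 and 20.5 CPM, with a ratio of 10.4 (2.41 to 93.5). The 15 cells lay in 10 clusters with at most 4 in any of them. Barcodes with at most 200 UMIs, which hold free RNA and few cells, gave the same contrast, with 1 Wild Type and 13 mutant UMIs, or 1.76 and 16.2 CPM. The level in mutant cells was therefore close to that of the free RNA, and from these counts it cannot be told apart from free RNA taken up by every droplet. How the counting split reads between the paralogs was not examined here.

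Somatic cells, those outside the germline-like cluster described below, numbered 215 in Wild Type and 665 in the mutants. In these cells the proteasome genes were slightly higher in the mutants, with 2180 UMIs, or 2231 CPM (2138 to 2326), in Wild Type and 1750 UMIs, or 2454 CPM (2340 to 2571), in the mutants. The ratio was 1.10 (1.03 to 1.17), and 0.978 when scaled by the median of ratios, so the direction depended on the scaling. The median log2 ratio of the 32 genes was 0.24, beside 0.27 for all genes. Of the 32 genes 5 were at least 1.5-fold higher, beside 34.9% of all genes tested in somatic cells, and 0 were 1.5-fold lower, beside 12.4%. They were *rpn-5* at 1.85 (1.21 to 2.86), *pas-6* at 1.86 (1.11 to 3.15), *pbs-6* at 1.66 (0.931 to 2.97), *pas-2* at 1.54 (0.931 to 2.56) and *pbs-3* at 1.53 (0.942 to 2.48). The interval lay above 1 for 3 genes, *rpn-5*, *pas-6* and *pbs-7*, beside 33.5%, and below 1 for *pbs-1* alone, beside 13.7%. Leaving out 4 Wild Type and 21 mutant cells thus changed the counts from 1 higher and 1 lower to 5 higher and 0 lower.

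The somatic difference was unequal over the complex. Grouping by particle, a split made after the values were seen, the core particle had a ratio of 1.22 (1.09 to 1.36) and the regulatory particle 1.05 (0.967 to 1.13). After scaling by the median of ratios they were 1.08 and 0.930, the latter in the other direction. The alpha ring had 259 Wild Type and 263 mutant UMIs, or 265 and 369 CPM, a ratio of 1.39 (1.17 to 1.66), which was 1.24 after that scaling. All 7 alpha genes were higher by point value, but only *pas-6* had an interval above 1. The median log2 ratio of all genes tested in somatic cells was also above 0, at 0.27. The beta ring stood at 1.11 (0.963 to 1.28), the ATPases at 1.08 (0.933 to 1.24), the lid at 1.10 (0.983 to 1.24) and the scaffolds and receptors at 0.910 (0.774 to 1.07). In the same somatic cells the 10 germline markers summed to 14 Wild Type and 149 mutant UMIs, or 14.3 and 209 CPM. Of these, *nos-1* was at 0 in both, and *xnd-1*, *pgl-3* and *cpg-2* were at 0 in Wild Type. Only 1 of the 10 had at least 20 UMIs. Muscle markers were at 9353 and 14637 CPM, and markers of differentiating neurons at 377 and 827 CPM. Hypodermis markers were lower in the mutants, at 10844 and 8376 CPM. Those of glia and excretory cells were at 230 and 210 CPM. The part of these differences in the proteasome ratios was not tested. Without the 18 deep barcodes the core particle had a ratio of 1.27 and the regulatory particle 1.03.

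To compare like cells, both libraries were clustered together with the 33 genes left out, which gave 17 clusters. A cluster was called after a tissue only where at least 3 of its known markers were enriched 2-fold and led the cluster, a rule set after the clusters were seen, and 6 clusters were so named. The proteasome level varied less over somatic clusters than over single subunits, from 1676 to 2745 CPM in the 7 Wild Type and from 1620 to 3433 CPM in the 16 mutant clusters with at least 10 cells. Body wall muscle-like cells were the lowest of the Wild Type clusters, at 1676 CPM (1395 to 1997) in 39 cells, and stood at 1951 CPM (1663 to 2276) in 77 mutant cells. Hypodermis-like cells had 2035 CPM (1887 to 2190) in 28 and 1897 CPM (1643 to 2179) in 82 cells. Cluster 2, which has no name, was the highest somatic cluster in both genotypes, at 2745 CPM (2371 to 3161) and 3433 CPM (3046 to 3856). Intestine-like cells with 1737 CPM, differentiating neuron-like cells with 2642 CPM and ciliated neuron-like cells with 2432 CPM came almost all from the mutants, with 1, 2 and 1 Wild Type cells.

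In 7 somatic clusters each genotype had at least 10 cells. The ratio was above 1 in 5 of them and below 1 in 2, from 0.840 to 1.25. The 2 below 1 were cluster 6 and the hypodermis-like cluster. Their Wild Type cells had medians of 16270 and 6447.5 UMIs, and their mutant cells 2614 and 689. The part of depth in these ratios was not tested. Only cluster 2, at 1.25 (1.04 to 1.51), had an interval apart from 1, and the muscle-like and hypodermis-like clusters had ratios of 1.16 (0.916 to 1.48) and 0.932 (0.793 to 1.09). With the same weight for each of the 7 clusters in both genotypes the ratio was 1.10 (1.0 to 1.20), and 0.976 when scaled by the median of ratios. That interval is a normal approximation on the log scale. Without barcodes above 10000 UMIs the ratio at equal weights was 1.16, over clusters that kept at least 10 cells of each genotype. Free RNA held more proteasome transcripts than the somatic cells. Barcodes with at most 200 UMIs had 3051 CPM (2909 to 3198) in Wild Type and 2752 CPM (2639 to 2870) in the mutants. How much of the level of a cell came from free RNA was not tested.

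**Figure D3:**
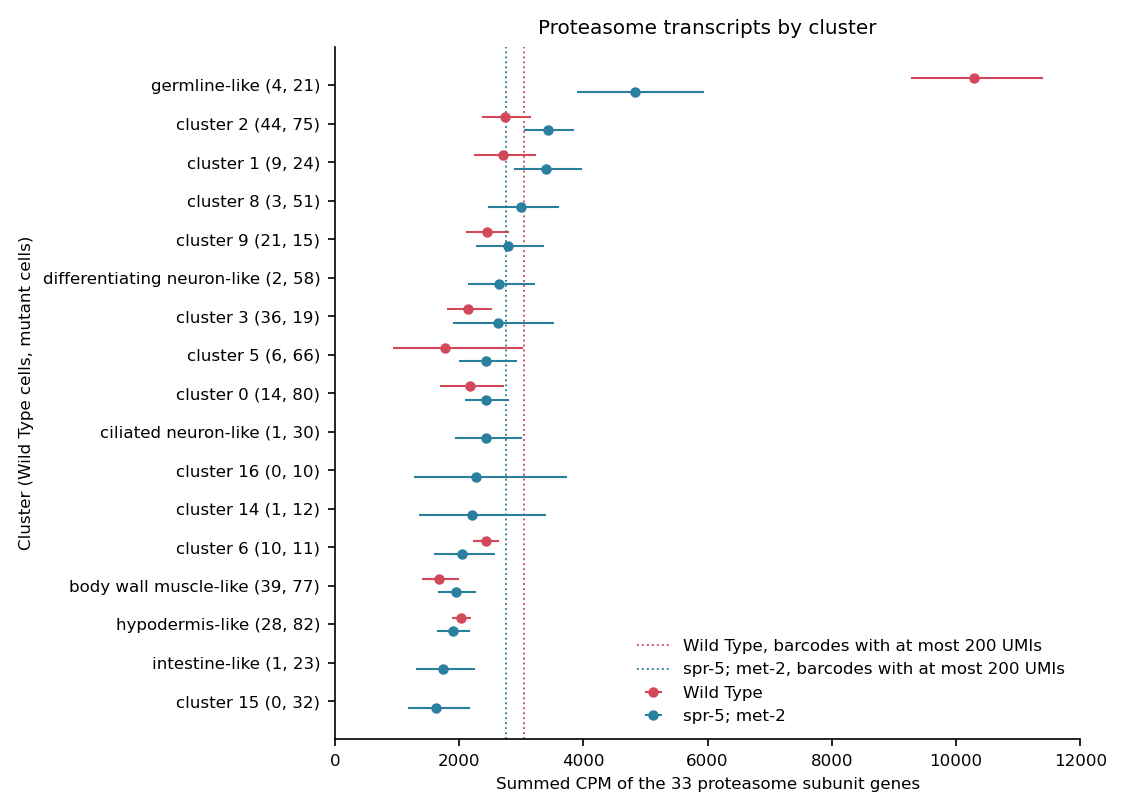
Summed level of the 33 proteasome subunit genes by cluster, in CPM, for Wild Type (red) and *spr-5; met-2* (blue), with 95% Poisson intervals, where the genotype had at least 4 cells in the cluster; numbers in brackets are cells of each genotype and dotted lines are barcodes with at most 200 UMIs. The germline-like cluster stands apart at 10295 and 4837 CPM, and all other points lie between 1620 and 3433 CPM.

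The germline-like cells had by far the most proteasome transcripts for their depth. This cluster had 9 of 10 germline markers enriched, led by *nos-2*, a translational regulator of the germline precursors, and held 4 Wild Type and 21 mutant cells. The 4 Wild Type cells had 370 proteasome UMIs, or 10295 CPM (9273 to 11399), which was 4.62 times (4.12 to 5.16) the level of Wild Type somatic cells. They were 14.5% of all Wild Type proteasome UMIs. Each of the 4 cells was above every somatic cluster: they had 159 of 23194, 107 of 6346, 50 of 3397 and 54 of 3003 UMIs, or 6855, 16861, 14719 and 17982 CPM. The lowest of these was the deepest cell, which is 1 of the 18 deep barcodes and the 1 cell of the cluster that Scrublet, a doublet caller, called in Wild Type. It held nearly all muscle marker UMIs of the 4 cells, which summed to 2282 CPM with it and 157 CPM without it. Without the deep barcodes the ratio over somatic cells was 7.44 (6.39 to 8.62). For other complexes the ratio of the same cells over somatic cells was 1.02 (0.755 to 1.35) for the initiation factor eIF3, 0.688 (0.412 to 1.08) for the CCT chaperonin and 0.657 (0.631 to 0.684) for cytosolic ribosomal proteins. It was above 1 for the COP9 signalosome at 1.70 (1.11 to 2.51), the anaphase-promoting complex at 1.46 (1.12 to 1.87), the cullin-RING core at 1.33 (1.03 to 1.69) and the 5 genes of proteasome-associated proteins at 2.11 (1.40 to 3.09). The 23 genes of ubiquitin, its conjugation, shuttles and CDC-48 were also above 1, at 1.19 (1.06 to 1.34). Without the deep barcodes the COP9 signalosome, at 1.75 (0.827 to 3.27), and the cullin-RING core, at 1.35 (0.876 to 1.99), had intervals that included 1. The anaphase-promoting complex, at 1.58 (1.01 to 2.38), and the associated proteins, at 3.07 (1.72 to 5.1), stayed above 1. So did the ubiquitin list, at 1.38 (1.14 to 1.64).

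The core particle had the larger part of this. In Wild Type its genes were 8.96 times (7.68 to 10.4) higher in germline-like than in somatic cells, and those of the regulatory particle 2.61 times (2.18 to 3.1). Without the deep barcodes these ratios were 15.9 (12.9 to 19.4) and 3.75 (2.91 to 4.76). By structural group the ratio was 12.3 (9.79 to 15.3) for the alpha ring, 6.96 (5.59 to 8.60) for the beta ring, 3.48 (2.74 to 4.38) for the lid, 2.59 (1.85 to 3.55) for the ATPases and 1.13 (0.641 to 1.86) for the scaffolds and receptors. Of the 14 core genes 13 were at least 1.5-fold higher, the exception being *pas-4* at 1.16 (0.136 to 4.42). The highest core ratio was that of *pas-6*, with 28 UMIs in the 4 germline-like cells and 28 in the 215 somatic cells, a ratio of 27.2 (15.5 to 47.6). Among the regulatory genes with at least 20 UMIs, the highest was *rpn-12* at 6.94 (3.35 to 13.3) and the lowest *rpn-8* at 0.572 (0.0683 to 2.13). Over both particles, 24 of 32 genes were at least 1.5-fold higher, beside 30.2% of all genes tested, and 22 had an interval above 1, beside 11.3%. The median ratio was 4.78, beside 0.927 for all genes. Without the deep barcodes 28 genes had enough UMIs, of which 24 were at least 1.5-fold higher and 16 had an interval above 1, and *pas-6* reached 67.8 (29.3 to 166). The shares over all genes were not counted without the deep barcodes, so these 2 counts cannot be set against them.

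The mutant cells of the cluster had less of this difference. Their 91 proteasome UMIs gave 4837 CPM (3895 to 5939), which was 1.97 times (1.58 to 2.43) the level of mutant somatic cells. For comparison, the COP9 signalosome stood at 2.02 (1.14 to 3.33) in the same mutant cells. The 6 genes of the SKN-1A pathway stood at 2.59 (1.58 to 4.04), where Wild Type gave 1.68 (0.98 to 2.7). The anaphase-promoting complex, at 1.44 (0.998 to 2.02), and the associated proteins, at 1.35 (0.642 to 2.53), had intervals that included 1. So did eIF3 at 1.28 (0.862 to 1.82) and the CCT chaperonin at 1.13 (0.695 to 1.74). Single mutant cells had 0 to 22 proteasome UMIs at a depth of 414 to 4386 UMIs, and ranged from 0 to 17327 CPM with 3 cells at 0 and a median of 4274 CPM, so that they overlapped the Wild Type cells. The deepest of them had 22 of 4386 UMIs, or 5016 CPM (3143 to 7594). Of 30 subunit genes with enough UMIs 19 were at least 1.5-fold higher than in somatic cells, beside 33.9% of all genes tested, and 6 had an interval above 1, beside 9.77%. The ratio over somatic cells was 2.11 (1.45 to 2.98) for the core and 1.90 (1.43 to 2.48) for the regulatory particle. No UMI of *pas-1*, *pas-6*, *rpn-9* or *rpt-3* was found in the 21 cells, which for *pas-6* allows at most 3.86 times the somatic level.

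**Figure D4:**
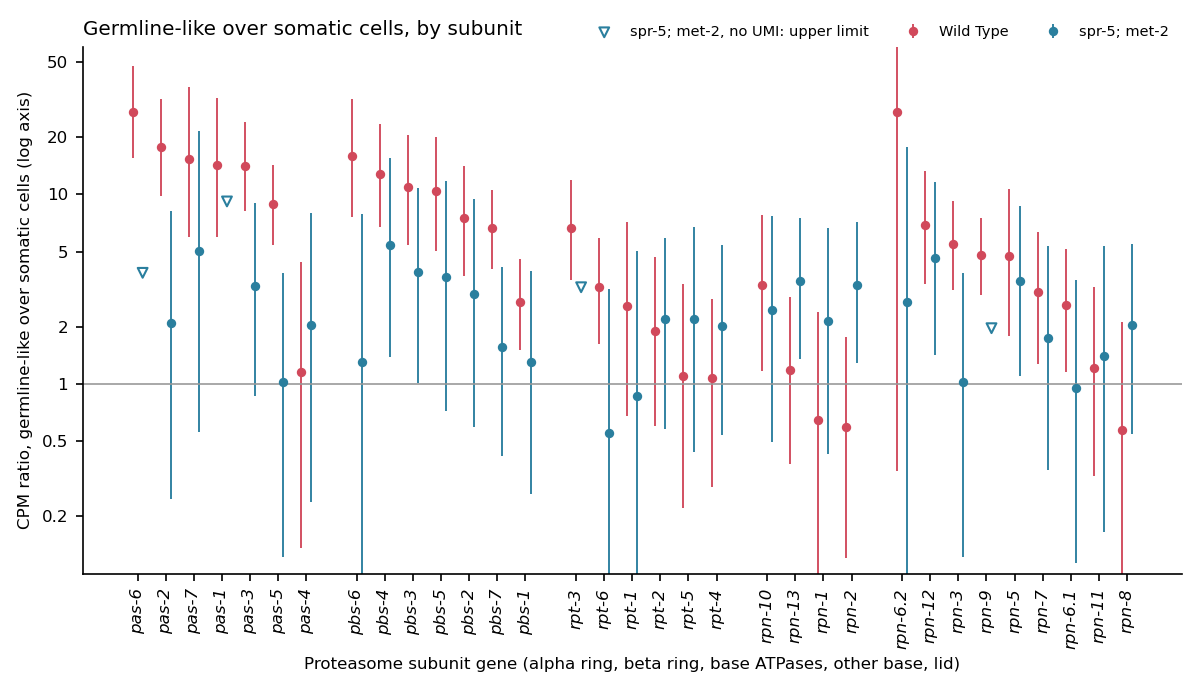
Ratio of CPM in germline-like over somatic cells for each subunit gene, on a log axis, in Wild Type (red, 4 germline-like cells) and *spr-5; met-2* (blue, 21 cells), with 95% exact conditional intervals, some of which run off the axis; open triangles are upper limits of genes with no UMI in the 21 cells. In Wild Type all alpha and beta genes but *pas-4* and *pbs-1* lie above 6, with *pbs-1* at 2.72, whereas the blue intervals are wide and most include 1.

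Directly compared, the germline-like cells of the mutants had 0.470 times (0.369 to 0.592) the proteasome level of those of Wild Type, or 0.292 (0.226 to 0.375) without the deep Wild Type barcode. By group the ratio was 0.196 (0.0984 to 0.355) for the alpha ring, 0.382 (0.230 to 0.608) for the beta ring, 0.578 (0.285 to 1.09) for the ATPases and 0.546 (0.332 to 0.868) for the lid. The scaffolds and receptors went the other way, with 16 and 20 UMIs, at a ratio of 2.39 (1.18 to 4.93). Other lists in the same cells lay on both sides of 1. The SKN-1A pathway stood at 2.23 (1.13 to 4.44) and the CCT chaperonin at 2.11 (1.08 to 4.15). For eIF3 the ratio was 1.16 (0.718 to 1.85) and for the COP9 signalosome 1.13 (0.57 to 2.18). The ubiquitin list was at 0.744 (0.595 to 0.925) and cytosolic ribosomal proteins were at 0.83 (0.772 to 0.893). Without the barcode the alpha ring stood at 0.113 (0.0558 to 0.210), the beta ring at 0.229 (0.135 to 0.377), the lid at 0.353 (0.206 to 0.591) and the ATPases at 0.400 (0.185 to 0.831), and the scaffolds and receptors at 2.26 (0.875 to 6.87), an interval that included 1. The cells differed in more than their genotype. Germline markers summed to 2309 CPM in Wild Type and 2339 CPM in the mutants, with *nos-1* at 0 in both and *meg-2* at 0 in the mutants. Without the deep barcode they stood at 4472 and 2339 CPM, a ratio of 0.523 (0.345 to 0.789), below 1 like the proteasome genes. Hypodermis markers summed to 918 CPM in Wild Type, with 11 of 19 at 0, and to 3668 CPM in the mutants, with 4 of 19 at 0. Muscle markers summed to 2282 and 2658 CPM, with 13 and 5 of 20 at 0. Without the deep barcode the Wild Type sums were 314 CPM for hypodermis and 157 CPM for muscle markers. A Wild Type cell of the cluster had a median of 4871.5 UMIs and a mutant cell 527, and 6 mutant cells had no UMI of a germline marker. The 15 others had 4082 CPM. The part of depth, of other cells and of free RNA in these values was not tested.

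The make-up of the proteasome transcripts also differed, a measure that does not use the total UMIs of a cell. The core particle made up 61.4% (56.2% to 66.3%) of the proteasome UMIs in Wild Type germline-like cells and 31.6% (29.7% to 33.6%) in Wild Type somatic cells. In the 4 single cells the share was 56.6%, 67.3%, 72.0% and 53.7%, above the 23.4% to 37.5% of the 7 Wild Type somatic clusters. In the mutants it was 37.4% (27.4% to 48.1%) in germline-like and 35.0% (32.7% to 37.3%) in somatic cells. The mutant somatic clusters ranged from 27.3% to 53.3%, the latter in a cluster of 10 cells with 15 proteasome UMIs. Free RNA held 35.4% and 37.7%, close to the somatic cells. The share of the Wild Type germline-like cells was the highest of these sets, and the 3 of them without the deep barcode had 64.9% (58.1% to 71.4%).

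**Figure D5:**
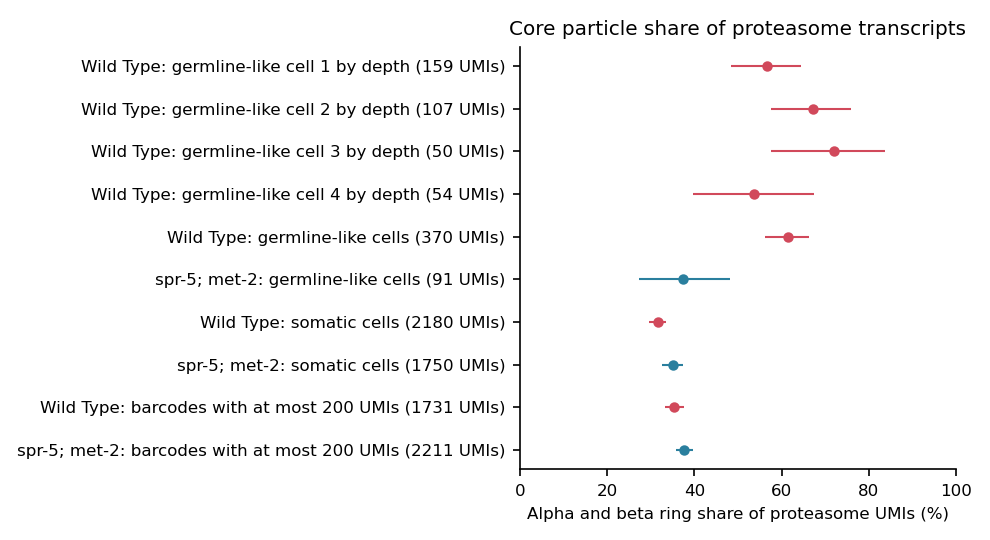
Share of proteasome UMIs that come from alpha and beta ring genes, in percent, for Wild Type (red) and *spr-5; met-2* (blue), with exact 95% binomial intervals and the number of proteasome UMIs in brackets; the germline-like cells of Wild Type are also shown one by one, from the deepest. The 4 Wild Type cells lie between 53.7% and 72.0%, while all somatic cells, the mutant germline-like cells and the barcodes with at most 200 UMIs lie between 31.6% and 37.7%.

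Genes around the proteasome gave mixed values over all cells. Of 5 associated genes, among them *dss-1*, whose product is a small lid subunit, 0 passed 1.5-fold, and their sum had a ratio of 0.998 (0.856 to 1.16). The most abundant was *ubh-4*, a ubiquitin hydrolase of the complex, with 225 Wild Type and 162 mutant UMIs, at a ratio of 0.997 (0.809 to 1.22). The ratio of *dss-1* was 0.785 (0.513 to 1.19) and that of *aip-1* 1.35 (0.862 to 2.12). The 6 genes of the SKN-1A pathway, which raises subunit genes when degradation falls short, summed to 1.46 (1.25 to 1.72), or 1.30 when scaled by the median of ratios, with 3 genes at least 1.5-fold higher, beside 35.4% of all genes. The transcription factor gene *skn-1* had 32 and 46 UMIs, or 31.6 and 62.8 CPM, at a ratio of 1.99 (1.24 to 3.23), but these counts do not tell SKN-1A from the other forms. The gene of the ubiquitin ligase adaptor *sel-1*, which acts in degradation from the endoplasmic reticulum, had a ratio of 1.98 (1.43 to 2.76) and that of the ligase *sel-11* 1.31 (0.924 to 1.85). The third gene past 1.5-fold was *wdr-23*, chosen for naming after its values were seen, with 24 and 44 UMIs, at a ratio of 2.54 (1.51 to 4.36). It encodes a negative regulator of SKN-1. The genes for the enzymes that activate SKN-1A had intervals that included 1, with 0.692 (0.289 to 1.55) for the glycanase gene *png-1* and 0.956 (0.690 to 1.32) for the protease gene *ddi-1*.

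Upstream of the proteasome, 23 genes of ubiquitin, its conjugation, shuttles and CDC-48 summed to a ratio of 0.806 (0.776 to 0.838). Its most abundant genes were the polyubiquitin gene *ubq-1* and the ribosomal fusion gene *ubq-2*. The counts of *ubq-1* were 2525 and 1257, at a ratio of 0.689 (0.643 to 0.738), and those of *ubq-2* were 1616 and 460, at a ratio of 0.394 (0.354 to 0.437). Cytosolic ribosomal protein genes as a whole had a ratio of 0.649 (0.642 to 0.656). The third in abundance, *ubl-1*, which fuses a ubiquitin-like part to a ribosomal protein, had a ratio of 0.923 (0.835 to 1.02). Of 20 genes with enough UMIs 10 were higher and 10 lower by point value, with a median log2 ratio of 0.08. At least 1.5-fold, 5 were higher and 1 lower, beside 35.4% and 12.4% of all genes.

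Among ligases, the 13 genes of the cullin-RING core summed to 1.44 (1.34 to 1.54), with 6 of 12 genes at least 1.5-fold higher and 2 lower, beside 35.4% and 12.4% of all genes. The adaptor *skr-1* had 488 and 702 UMIs, at a ratio of 1.99 (1.77 to 2.24), *cul-2* a ratio of 1.62 (1.29 to 2.05) and *rbx-1* 0.923 (0.735 to 1.16). The anaphase-promoting complex, which marks cell cycle proteins for the proteasome, summed to 1.02 (0.938 to 1.11), with its activator *fzy-1* at 0.704 (0.574 to 0.860), *mat-2* at 1.75 (1.40 to 2.20) and *emb-30* at 1.21 (0.923 to 1.57). Other complexes of many subunits stood on either side of the proteasome. The COP9 signalosome, built like the lid, had a ratio of 0.956 (0.826 to 1.11), with *csn-2*, *csn-1* and *csn-5* at 0.983, 0.927 and 0.812. The ratio of eIF3 was 0.933 (0.859 to 1.01), with *egl-45* at 1.11, *eif-3.C* at 0.755 (0.603 to 0.944) and *eif-3.D* at 0.931. The CCT chaperonin had 1.30 (1.18 to 1.45), or 1.16 by the median of ratios, with *cct-5*, *cct-4* and *cct-7* at 1.16, 1.34 and 1.38. By point value 8 of 8 genes were higher, with a median log2 ratio of 0.42, beside 0.27 for all genes.

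The subunit genes were spread over the autosomes. In the WBcel235 assembly, which is the ce11 build of the files, 10 lay on chromosome I, 7 on II, 8 on III, 3 on IV, 5 on V and 0 on X, where X held 13.7% of the genes of the table and 11.5% of those with at least 20 UMIs. Of the 14 core genes 7 were on chromosome I. No pair was adjacent: the closest starts, those of *pbs-7* and *pas-4*, were 32013 bases apart. The genes were short, with a median span of 1490 bases beside 2847 for genes with at least 20 UMIs.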

How the data were processed

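The deposited matrices hold UMI counts per gene and barcode, which the authors made from 10x 3' libraries by Cell Ranger 3.0.2 against ce11, before their work in Seurat; they are whole numbers with empty droplets included and no normalization. Cells were the 219 and 686 barcodes with the most UMIs, the numbers that the labels give. Levels are sums of UMIs over cells, scaled to CPM, with exact Poisson, conditional binomial and Clopper-Pearson intervals at 95%. The interval of the ratio at equal cluster weights was instead a normal approximation on the log scale, from Poisson counts. All these intervals cover counting error only.

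Scanpy 1.11.5 (Python 3.11.15, numpy 2.4.6, pandas 2.3.3, scipy 1.17.1, anndata 0.12.19, matplotlib 3.10.9) clustered both libraries on genes seen in at least 5 cells, without the 33 genes, scaled to 10000 counts per cell, with 2000 variable genes, 20 components, 15 neighbours and Leiden resolution 1.0. A cluster was named "X-like" where at least 3 markers of a list had 3 UMIs or more and were enriched 2-fold, more than of any other list, and where at least 1 marker of that list, and more than of any other, was among the 10 leading genes with at least 15 UMIs. This rule was set after seeing the clusters. It kept 4 clusters with muscle markers without a name, holding 23.3% of the Wild Type and 20.8% of the mutant cells. Clusters 1, 5 and 9, in which 3, 5 and 6 neuronal progenitor markers were enriched, also stayed without a name. They held 9, 6 and 21 Wild Type cells and 24, 66 and 15 mutant cells. Scrublet, at an expected rate of 4%, called 10 Wild Type cells (4.57%) and 3 mutant cells (0.437%), fewer in the mutants than expected; called cells were kept and left out in an alternative.

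Gene positions came from Ensembl release 115, which matched 20105 of 20191 identifiers. Named with full values are the 6 subunit genes with the highest and the 6 with the lowest ratio among those with at least 20 UMIs, the most abundant of each structural group, the catalytic genes, both *rpn-6* paralogs, the 3 most abundant genes of each related list, and *skn-1*, *png-1* and *ddi-1*; other subunit genes named for their somatic or germline-like values were chosen after these were seen. The members and lists were chosen with earlier results of these data known. The ratio and interval steps, but not the clustering or the other steps, were tested on simulated counts. Alternatives changed the cells, doublets, depth, gene filter, scaling, cluster weights and Leiden resolution, which was set to 0.5 and 1.5.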

Additional observations from a re-analysis of the deposited data

Results flagged for a closer look

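The mutant over Wild Type ratio of the summed proteasome genes went in opposite directions in the cell groups on the CPM scale, at 0.470 (0.369 to 0.592) in the germline-like cells, with 4 Wild Type and 21 mutant cells, and at 1.10 (1.03 to 1.17) in somatic cells. Scaled by the median of ratios, with the factor of all cells, both were below 1, at 0.418 and 0.978. With 1 library per genotype the difference was not tested.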

How the results depend on the processing

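The summed ratio over all cells, 0.999, was 1.06 when 500 UMIs were drawn per cell, which left out 162 mutant cells, 1.10 without the germline-like cluster and 0.889 by the median of ratios. The somatic ratio of 1.10 reversed to 0.978 and the ratio at equal cluster weights, also 1.10, to 0.976 under that scaling. The count of subunit genes at least 1.5-fold lower, 1 of 32, was 0 without called doublets, with all barcodes of at least 500 UMIs and without the germline-like cluster, 2 by the median of ratios and 4 of 23 with 500 UMIs drawn. The count at least 1.5-fold higher, also 1, was 8 of 23 with 500 UMIs drawn, 5 without the germline-like cluster, and 2 with the same weight for every cell or with no filter on UMIs. With 500 UMIs drawn, 15.9% of 3589 genes were lower and 35.8% higher, so the subunit genes were near the shares of all genes. The Wild Type ratio of germline-like over somatic cells, 4.62, was 7.44 without barcodes above 10000 UMIs and 7.40 without called doublets, both of which leave out the deepest cell. At Leiden resolution 0.5 the germline-like cluster held 9 mutant cells instead of 21. Their ratio over somatic cells was 1.66 instead of 1.97, and their core share 45.8% instead of 37.4%. At resolution 1.5 it held 22 mutant cells, with 1.97 and 36.6%. The 4 Wild Type cells stayed in it at both. Of 19 subunit genes named for their ratios, 19 stayed within their intervals by the median of ratios, 18 without the deep barcodes, where *rpn-5* reached 2.62, and 9 with 500 UMIs drawn, where 8 moved and 2, *pbs-4* and *rpn-6.2*, gave no value since Wild Type had no UMI. Where these values moved, the cause was not tested. Alternatives on somatic cells, shared barcodes and the germline-like cells were chosen after seeing the data. No paired analysis was possible because each genotype has 1 library. Depth limits single genes: at 42 to 266 UMIs most intervals span more than 1.5-fold.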
